A study of Mus musculus with 24 samples.

Results

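The genes described here are 33 listed genes that carry glucose from the medium to acetyl-CoA: glucose transporters, the enzymes of glycolysis with their isoforms, lactate dehydrogenase and the lactate transporters, the mitochondrial pyruvate carrier, and pyruvate dehydrogenase with its kinases. They were chosen by name, with earlier results of these data known, and all 33 were found among the 56941 gene IDs of the count files. Polyadenylated RNA of a mouse cell line labelled as hypothalamic cells was sequenced from cells kept in medium of normal (NG) or high (HG) glucose. Each medium had an untreated control, NGC or HGC, and cells given mogroside V, a sweet compound of monk fruit, under the dose labels 1 to 3 (NG1 to NG3 and HG1 to HG3), with 3 libraries in each of the 8 groups. Concentrations of 15, 60 and 160 µM are listed for the series without saying which dose label each belongs to, and no label gives the glucose concentrations or the culture times. All groups share the same line, and no treatment or allele beyond glucose and mogroside V is named. The comparisons ask which steps of glucose breakdown, and which isoforms of them, shift with the medium, and whether mogroside V moves them.

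Glycolysis splits glucose into pyruvate in the cytosol and yields ATP and NADH. Hexokinase traps glucose as glucose 6-phosphate, phosphofructokinase makes the committed step, and pyruvate kinase closes the pathway. Pyruvate then either becomes lactate, which lactate dehydrogenase makes and monocarboxylate transporters export, or enters mitochondria, where pyruvate dehydrogenase turns it into acetyl-CoA unless a pyruvate dehydrogenase kinase (PDK) switches it off. Most steps have several isoforms from separate genes that differ in affinity, regulation and tissue. In the brain, astrocytes and other glia are known for a high rate of glycolysis and lactate release, and neurons for taking up lactate and for a high share of the LDHB subunit.

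The deposited values of replicate 3 of HG2 and replicate 2 of HG3 were identical throughout, and both were left out, which leaves 22 libraries, 12 in normal and 10 in high glucose. Gene counts per library ranged from 3396249 to 7773074. The share of reads outside genes (14.4 to 20.6% in normal and 15.7 to 20.2% in high glucose) and the mitochondrial share of gene counts (5.43 to 8.10% and 6.81 to 7.70%) overlapped between the media. NG3 replicate 3 and HGC replicate 2 stood apart from their groups on the first 2 principal components, and results that change without them are named. Several defining neuronal genes were near 0: Elavl4 was at 0 in 22 of 22 libraries, Snap25 in 20, Rbfox3 in 17 and Syt1 in 13. Other neuronal genes were present: Tubb3 (41.7 to 76.2 CPM, the count scaled to the total of its library), Map2 (33.2 to 69.5 CPM) and Stmn2 (13.0 to 28.6 CPM). The other marker lists were mixed too. Among astrocyte and tanycyte markers Gfap was at 0 in 20 libraries and Aqp4 in 22, but Vim (2717 to 3994 CPM), Sox9 (128 to 252 CPM) and Gja1 (45.2 to 73.3 CPM) were present. The oligodendrocyte genes Olig2 and Sox10 were at 0 in 22 libraries, and of the microglia list P2ry12 was at 0 in 16 and Tmem119 had 118 to 203 CPM. Among fibroblast and pericyte markers the collagen genes Col1a1 (977 to 1596 CPM), Col1a2 (1495 to 3851 CPM) and Col3a1 (384 to 631 CPM) were high. So was the smooth muscle actin gene Acta2 (1373 to 2348 CPM). Pdgfrb (202 to 337 CPM) and Pdgfra (31.3 to 50.1 CPM) were present, Dcn was low (4.04 to 14.0 CPM) and Lum was at 0 in 18 libraries. Of 7 tested fibroblast and pericyte markers, Col1a1 and Acta2 were called higher in high glucose, where 5.71% of all genes were, and the summed level of the list's 8 genes was 5780 to 7833 CPM in normal and 7038 to 7973 CPM in high glucose. Of 6 tested neuronal markers Map2 fell, where 4.38% of all genes did (log2 -0.39 ± 0.08, SE, edgeR adjusted p = 0.000853), and the sum of the 12 listed was 126 to 167 CPM and 118 to 139 CPM. Their part in the results below was not tested. In bulk RNA, fewer cells of a type and less RNA per cell cannot be told apart.

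Levels were compared between genes per kilobase of exon, from the means over 22 libraries (± SD). The 4 highest, by merged exons and by the longest transcript, were Aldoa, the main aldolase, at 90.2 ± 14.0 CPM per kilobase, Tpi1, the triose phosphate isomerase, at 84.9 ± 9.04, Ldha, the lactate dehydrogenase A subunit, at 69.2 ± 9.62, and Pkm, pyruvate kinase, at 64.4 ± 8.57. Pdk3, a kinase that inhibits pyruvate dehydrogenase, had 26.8 ± 3.79 CPM per kilobase, within SD of Gapdh at 26.2 ± 5.79. By the longest transcript Gpi1 (35.4), Gapdh (32.9) and Pdk3 (32.5) were the next highest, so their order depends on the length used. By both lengths Pdk3 stood above the subunit genes of the enzyme it acts on. By merged exons Pdha1 stood at 19.7 ± 3.13, Dlat at 10.3 ± 1.36 and Pdhb at 8.49 ± 1.21. Within SD, the neighbours Aldoa and Tpi1 did not differ, nor did Ldha and Pkm, nor Hk2 (11.0 ± 2.49), the glucose transporter gene Slc2a1 (10.5 ± 1.65), Dlat and the lactate transporter gene Slc16a1 (10.1 ± 1.62). The lowest were Slc2a3, the high-affinity glucose transporter of neurons, at 0.343 ± 0.186 CPM per kilobase, and Mpc1, a subunit of the pyruvate carrier, at 0.0799 ± 0.156.

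**Figure D1:**
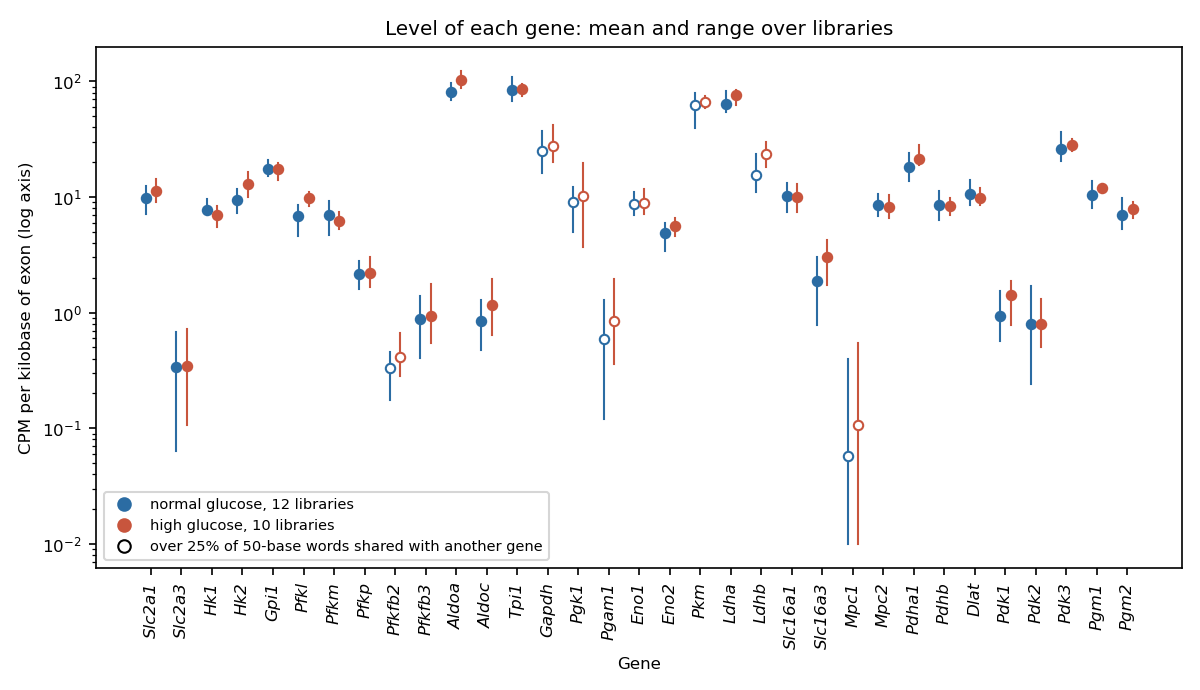
Level of the 33 genes in CPM per kilobase of exon (log axis) in normal glucose (blue, 12 libraries) and high glucose (red, 10 libraries). Points are means, lines run from the lowest to the highest library and end at 0.01 where a library is at 0, and open points mark the 8 genes with over 25% of their 50-base words in another gene's transcripts. Aldoa, Tpi1, Ldha and Pkm stand highest and Mpc1 lowest in both media.

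Levels of some members are uncertain, because reads that align to several places were not counted and many glycolytic genes have near-identical copies. Of the 50-base words in the longest transcript, 72.2% were shared with another gene for Eno1, 68.0% for Pgk1, 41.5% for Pgam1, 34.4% for Pkm, 29.6% for Mpc1, 27.8% for Gapdh, 27.0% for Ldhb and 26.1% for Pfkfb2. Gapdh, the enzyme most often used as a reference gene, had only 66.2 to 175 CPM, and Pgk1, which makes the first ATP of the pathway, had 8.29 to 43.8 CPM. Pgam1, the phosphoglycerate mutase, had 0.237 to 3.87 CPM and Mpc1 0 to 1.14 CPM, with a median of 0 in each medium, and neither passed the low-count filter. Smaller shares were found for Pdha1 (16.9%), Ldha (16.65%), Aldoa (13.5%), Gpi1 (10.2%) and Tpi1 (7.51%), so their levels carry the same limit to a lesser degree. At the other end, 12 members shared no word with another gene, among them Hk2, Pfkm, Pfkp, Slc16a1, Slc16a3, Pdk1, Pdk2, Pdk3 and Dlat, and Pfkl shared 0.0543%. For Ldhb the copy is Gm5514, which had at most 3.24 CPM, and for Eno1 it is Eno1b, which had 8.12 to 34.4 CPM and a log2 difference between the media of 0.43 ± 0.16 (adjusted p = 0.0777). Among treated libraries alone Eno1b was called higher (0.64 ± 0.18, adjusted p = 0.0245), and reads that align equally to Eno1 and Eno1b were counted for neither.

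The isoform mix was dominated by a single gene at some steps and divided at others. Shares per length, as medians over the 12 normal-glucose and then the 10 high-glucose libraries, put Slc2a1 at 96.5% and 97.4% of the pair with Slc2a3, and Aldoa at 98.9% in both media against Aldoc, the brain-type aldolase. Among the 3 PDK genes Pdk3 took 94.2% and 92.3%. The lactate transporter Slc16a1 took 84.0% and 76.2% against Slc16a3, the low-affinity lactate exporter of glycolytic cells. Ldha, whose subunit favours lactate formation, took 80.4% and 77.0% against Ldhb. Eno1, the broadly expressed enolase, took 61.6% and 61.2% against the neuronal isoform Eno2, although Eno1 is a level with uncertain counts. Pfkfb3, which makes the activator of phosphofructokinase, took 72.0% and 73.0% of the pair with Pfkfb2 in a range from 45.8 to 85.2%, and the phosphoglucomutase Pgm1 took 58.9% and 60.1% against Pgm2.

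The shares above are by merged exons, and by the longest transcript Eno1 held 71.6% and 71.3% and Ldha 86.2% and 83.6%. Hexokinase and phosphofructokinase were also divided, and their shares depended on the length used as well. Hk2, the inducible hexokinase, held 54.8% and 64.5% of the pair with Hk1 by merged exon length, but 39.7% and 49.7% by the longest transcript, so which of the pair is larger is not settled. The liver-type Pfkl held 43.9% of phosphofructokinase in normal glucose, close to 43.4% for the muscle-type Pfkm, and the platelet-type Pfkp held 12.9%. In high glucose Pfkl held 53.2%, Pfkm 33.1% and Pfkp 11.5%. By the longest transcript Pfkl held 52.8% and 61.6% in the 2 media, and Pfkm 33.9% and 24.8%.

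Of the 31 members that passed the filter, 8 were higher in high glucose as the mean of the 4 treatment levels (10 against 12 libraries) and 0 were lower, which is 25.8%, where 10.1% of all 13281 tested genes were called, 5.71% higher and 4.38% lower. In 0 members did every high-glucose library exceed every normal-glucose library, as 0.572% of all genes did. A positive log2 difference was found in 26 of the 31 against 47.1% of all genes, and the median was 0.18 against -0.01. The 8 were Hk2, Pfkl, Aldoa, Ldha, Ldhb, Slc16a3, Pdk1 and Pdha1, so they lie at glucose trapping, the committed step, aldolase, lactate formation and export, and the gate to mitochondria. Their rises ran from 1.21-fold (Ldha) to 1.69-fold (Slc16a3). DESeq2 called the same 8, and 10.9% of all genes. Because the members were chosen with earlier results of these data known, these shares describe the list and are not a test of it.

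**Figure D2:**
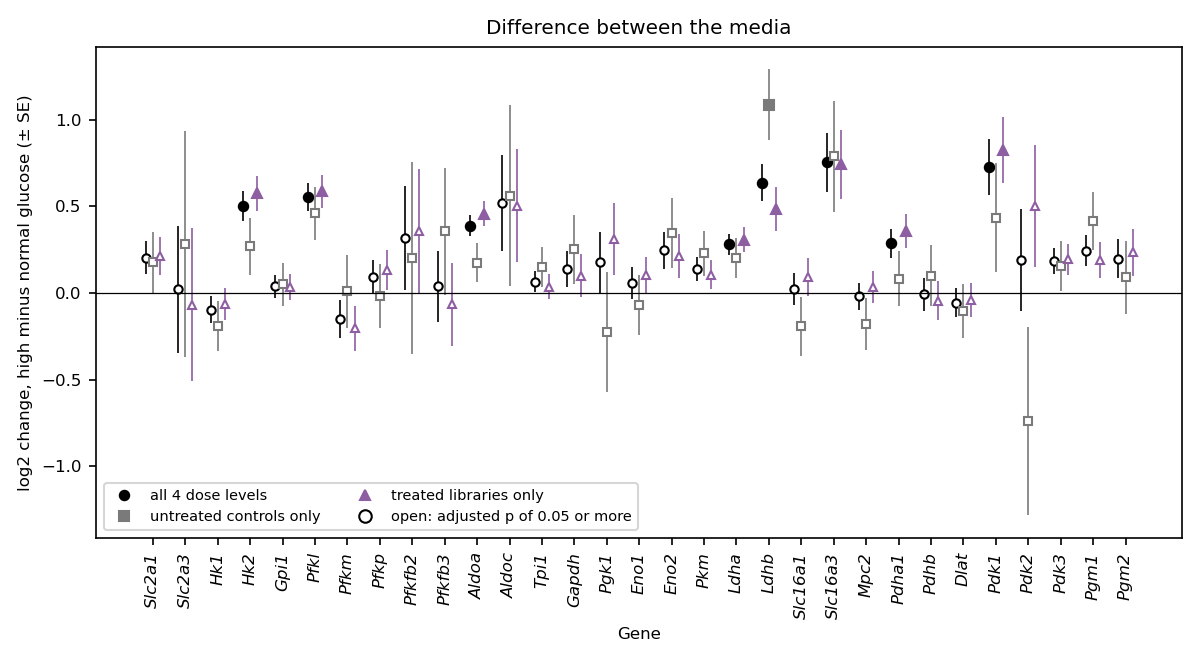
Log2 difference between high and normal glucose for the 31 tested genes, in the order of the pathway, with its standard error (lines). Circles are the mean over 4 treatment levels, squares the untreated controls and triangles the treated libraries, and filled symbols have an adjusted p under 0.05. The 8 filled circles are all above 0, and Ldhb is the 1 filled square, at 1.09.

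At entry, Slc2a1 had a median of 33.7 CPM in normal glucose (24.9 to 43.4) and 40.0 CPM in high glucose (31.8 to 50.04), a log2 difference of 0.20 ± 0.09 that did not pass (adjusted p = 0.175). Slc2a3 had medians of 2.79 and 2.25 CPM (0.02 ± 0.37, adjusted p = 0.986). Neither transporter gene was thus called between the media. High-glucose libraries above the normal-glucose median were 9 of 10 for Slc2a1 and 4 of 10 for Slc2a3. Hk2 stood at 51.2, 68.5 and 58.5 CPM in NGC, 43.7, 69.8 and 60.7 in NG1, 50.8, 63.9 and 45.5 in NG2, and 54.2, 59.9 and 45.6 in NG3. In high glucose it stood at 68.1, 74.6 and 70.1 CPM in HGC, 98.7, 78.9 and 87.7 in HG1, 82.4 and 60.3 in HG2, and 69.3 and 87.4 in HG3. HG1 had the highest group mean, 7 of 10 high-glucose libraries exceeded all 12 in normal glucose, and the media overlapped. The log2 difference of Hk2 was 0.50 ± 0.09 (1.41-fold, adjusted p = 5.93e-05), whereas Hk1, the constitutive hexokinase, had medians of 64.9 and 60.0 CPM (-0.10 ± 0.08, adjusted p = 0.497).

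At phosphofructokinase, Pfkl stood at 56.4, 46.4 and 44.1 CPM in NGC, 50.6, 39.3 and 43.6 in NG1, 42.8, 51.3 and 48.0 in NG2, and 48.2, 30.6 and 50.9 in NG3. It stood at 72.4, 64.4 and 64.4 CPM in HGC, 56.3, 60.9 and 56.5 in HG1, 69.5 and 74.3 in HG2, and 61.3 and 70.8 in HG3. NGC replicate 1 at 56.4 CPM was the only normal-glucose library above a high-glucose library (HG1 replicate 1, at 56.3 CPM), the least overlap of the 31 members by libraries above all of the other medium (9 of 10). The log2 difference of Pfkl was 0.55 ± 0.08 (1.47-fold, adjusted p = 3.58e-06). Pfkm, with medians of 22.95 and 20.4 CPM (-0.15 ± 0.11, adjusted p = 0.455), and Pfkp, with 29.1 CPM in both media (0.09 ± 0.10, adjusted p = 0.632), did not pass. Pfkfb2 and Pfkfb3, which set the level of fructose 2,6-bisphosphate, had log2 differences of 0.32 ± 0.30 and 0.04 ± 0.20 at 1.27 to 13.4 CPM.

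Aldoa had 202 to 281 CPM in normal glucose (median 233) and 256 to 361 CPM in high glucose (median 289), and 10 of 12 normal-glucose libraries lay below all high-glucose libraries. NG3 replicate 3 was the highest of normal glucose at 281 CPM. Its log2 difference was 0.39 ± 0.06 (1.31-fold, adjusted p = 8.40e-06). Aldoc, at 1.54 to 6.34 CPM, had a larger but unsure difference (0.52 ± 0.28, adjusted p = 0.262). The tested genes between aldolase and pyruvate did not pass: Tpi1 (0.06 ± 0.06), Gapdh (0.14 ± 0.11), Pgk1 (0.18 ± 0.18), Eno1 (0.06 ± 0.09), Eno2 (0.25 ± 0.11) and Pkm (0.14 ± 0.07) had adjusted p from 0.146 (Eno2) to 0.764 (Eno1). Over 25% of the words of Gapdh, Pgk1, Eno1 and Pkm were shared with another gene, and Pgam1 failed the filter. A shift at these steps could therefore be missed. Gpi1, the isomerase before phosphofructokinase, stood at 113 ± 11.6 CPM in normal and 112 ± 10.6 CPM in high glucose (0.04 ± 0.07, adjusted p = 0.797).

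At lactate formation, Ldha had 181 to 275 CPM in normal glucose (median 207) and 206 to 280 CPM in high glucose (median 253), a log2 difference of 0.28 ± 0.06 (1.21-fold, adjusted p = 0.00160). NG3 replicate 3, at 275 CPM, was within the high-glucose range. Ldhb stood at 20.5, 20.7 and 17.5 CPM in NGC, 27.1, 26.0 and 24.2 in NG1, 32.8, 26.2 and 17.4 in NG2, and 25.9, 19.5 and 36.6 in NG3. It stood at 37.2, 47.1 and 39.6 CPM in HGC, 33.5, 33.3 and 37.6 in HG1, 28.6 and 44.4 in HG2, and 36.1 and 34.2 in HG3. The controls were the lowest group mean in normal glucose and the highest in high glucose, and 10 of 12 normal-glucose libraries lay below all high-glucose libraries. The log2 difference of Ldhb was 0.64 ± 0.11 (1.55-fold, adjusted p = 4.17e-05).

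At lactate export, Slc16a3 stood at 13.2, 7.61 and 6.40 CPM in NGC, 8.25, 7.06 and 11.4 in NG1, 12.2, 10.3 and 10.5 in NG2, and 16.2, 4.18 and 12.4 in NG3. It stood at 14.8, 15.9 and 16.8 CPM in HGC, 10.1, 9.29 and 16.7 in HG1, 22.4 and 15.1 in HG2, and 21.5 and 18.9 in HG3. The media overlapped, since 5 of 10 high-glucose libraries lay at or under the highest normal-glucose library, NG3 replicate 1 at 16.2 CPM, and HG1 replicates 1 and 2 were the lowest of high glucose. The log2 difference of Slc16a3 was 0.75 ± 0.17 (1.69-fold, adjusted p = 0.00201), whereas Slc16a1 had medians of 45.7 and 44.0 CPM (0.02 ± 0.09, adjusted p = 0.932).

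At the entry of pyruvate into mitochondria, Mpc2, the partner of Mpc1 in the carrier, did not pass (-0.02 ± 0.08, adjusted p = 0.924). Pdha1, the catalytic subunit of pyruvate dehydrogenase that the kinases phosphorylate, had 51.7 to 90.6 CPM in normal glucose (median 67.0) and 71.3 to 104 CPM in high glucose (median 77.7), a log2 difference of 0.29 ± 0.08 (1.22-fold, adjusted p = 0.0199). That call was lost without HG2 replicate 2 (adjusted p = 0.0572) and without HG3 replicate 3 (adjusted p = 0.127), and Pdha1 overlaps the gene Map3k15, which had at most 1.18 CPM. Pdhb, its partner subunit, and Dlat, the acetyltransferase core, did not pass (-0.01 ± 0.10, adjusted p = 0.974, and -0.06 ± 0.08, adjusted p = 0.741).

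Pdk1, an inhibitory kinase induced in hypoxia, stood at 4.41, 6.89 and 8.05 CPM in NGC, 5.32, 5.09 and 4.74 in NG1, 11.96, 7.19 and 11.6 in NG2, and 6.34, 5.57 and 9.76 in NG3. It stood at 6.07, 12.1 and 7.41 CPM in HGC, 11.7, 10.8 and 11.8 in HG1, 11.2 and 12.005 in HG2, and 13.5 and 14.8 in HG3. NG2 reached the levels of high glucose, HGC reached down to those of normal glucose, and HG3 was the highest group. The log2 difference of Pdk1 was 0.73 ± 0.16 (1.65-fold, adjusted p = 0.00192). The far more abundant Pdk3 had medians of 62.1 and 71.1 CPM (0.18 ± 0.08, adjusted p = 0.124), and Pdk2 had 2.45 and 2.59 CPM (0.19 ± 0.29, adjusted p = 0.760). Pgm1, which links glucose 6-phosphate to glycogen, had medians of 29.9 and 35.2 CPM (0.24 ± 0.09, adjusted p = 0.0736), and Pgm2 17.8 and 20.1 CPM (0.20 ± 0.11, adjusted p = 0.313). Without the libraries that stood apart, 10 members were called, the 8 above with Pgm1 and Pdk3. Both were also called without NG3 replicate 3 alone, and Pgm1 without NG1 replicate 2 or NG2 replicate 2. Pgm1 was called too with the identical file placed in HG2 or in HG3. With each library left out, 7 to 10 members were called over all levels, and 977 to 1595 of all genes, against 1340 with all libraries.

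**Figure D3:**
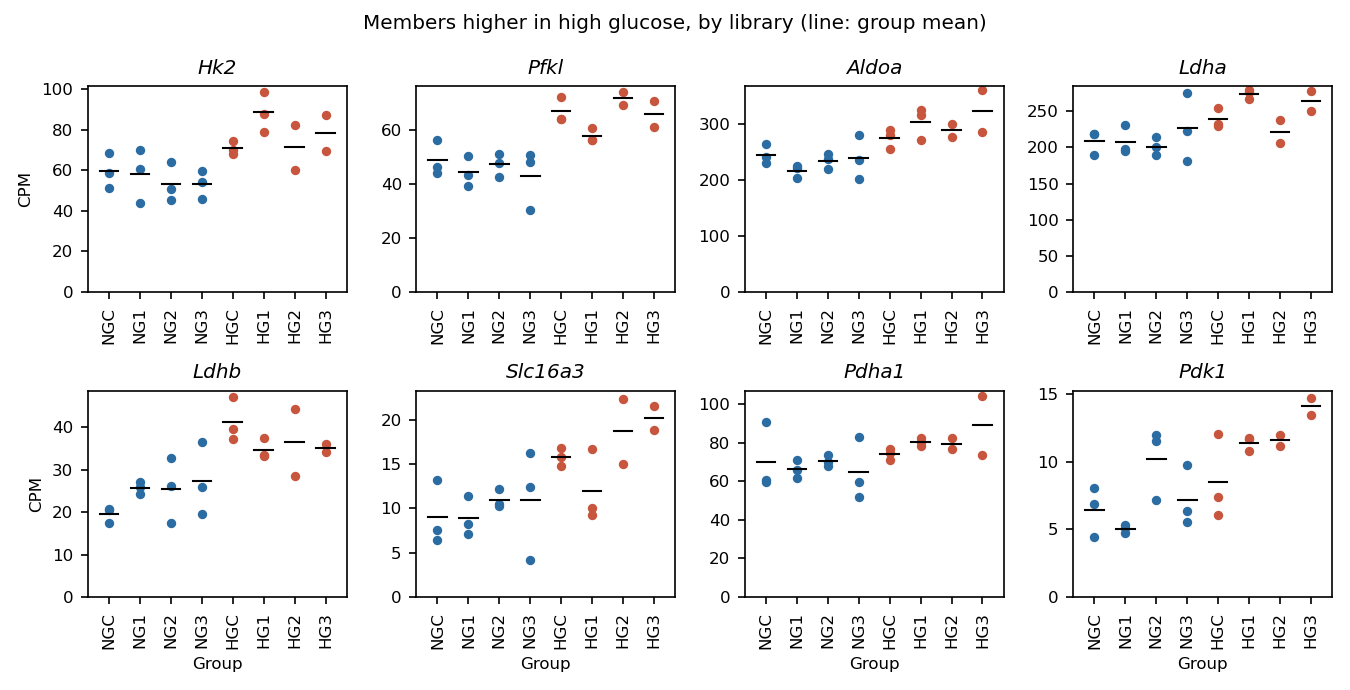
CPM of the 8 genes called higher in high glucose, in each of the 22 libraries (points) by group, with the group mean (line). Blue is normal and red is high glucose. For Pfkl 9 of 10 high-glucose libraries stand above all normal-glucose libraries, for Pdk1 4 and for Slc16a3 5.

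To ask whether isoforms shifted against each other, the log2 ratio of counts was compared between the media. The medium was reassigned within treatment levels in an exact two-sided permutation test, and p was adjusted over the 14 ratios tested. Pdhb/Pdha1 pairs subunits of the same enzyme, not isoforms. The ratios reuse the counts of the gene tests above, so they are not further evidence for those calls. The pairs Hk2/Hk1, Pfkl/Pfkm, Pfkl/Pfkp and Slc16a3/Slc16a1 shifted towards the gene named first. The count ratio Hk2/Hk1 had a median of 0.847 in normal glucose (0.557 to 1.12) and 1.27 in high glucose (1.02 to 2.11), so that counts of Hk2 exceeded those of Hk1 in 2 of 12 and 10 of 10 libraries (log2 difference 0.61, exact permutation p = 0.000125, adjusted p = 0.000875). Pfkl/Pfkm went from a median of 2.06 to 3.21 (log2 0.70, adjusted p = 0.000875), with 10 of 12 normal-glucose libraries below all high-glucose libraries. Slc16a3/Slc16a1 went from 0.231 to 0.377 (log2 0.79, adjusted p = 0.00385).

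Pfkl/Pfkp went from 1.53 to 2.32 (log2 0.47, adjusted p = 0.00569), and its call was lost without HG3 replicate 3 (adjusted p = 0.0518). Ldhb/Ldha went from 0.116 to 0.142 (log2 0.37, adjusted p = 0.0330) and Pdhb/Pdha1 fell from 0.508 to 0.394 (log2 -0.31, adjusted p = 0.0330). These last ratios passed in 12 and 17 of 27 alternatives. The Ldhb/Ldha difference was 0.88 at the control level and 0.03, 0.39 and 0.17 at dose labels 1, 2 and 3. The other 8 ratios did not pass, among them Pfkm/Pfkp (log2 -0.23, adjusted p = 0.224) and Pdk1/Pdk2 (0.49, adjusted p = 0.224), and the media overlapped in all 14.

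**Figure D4:**
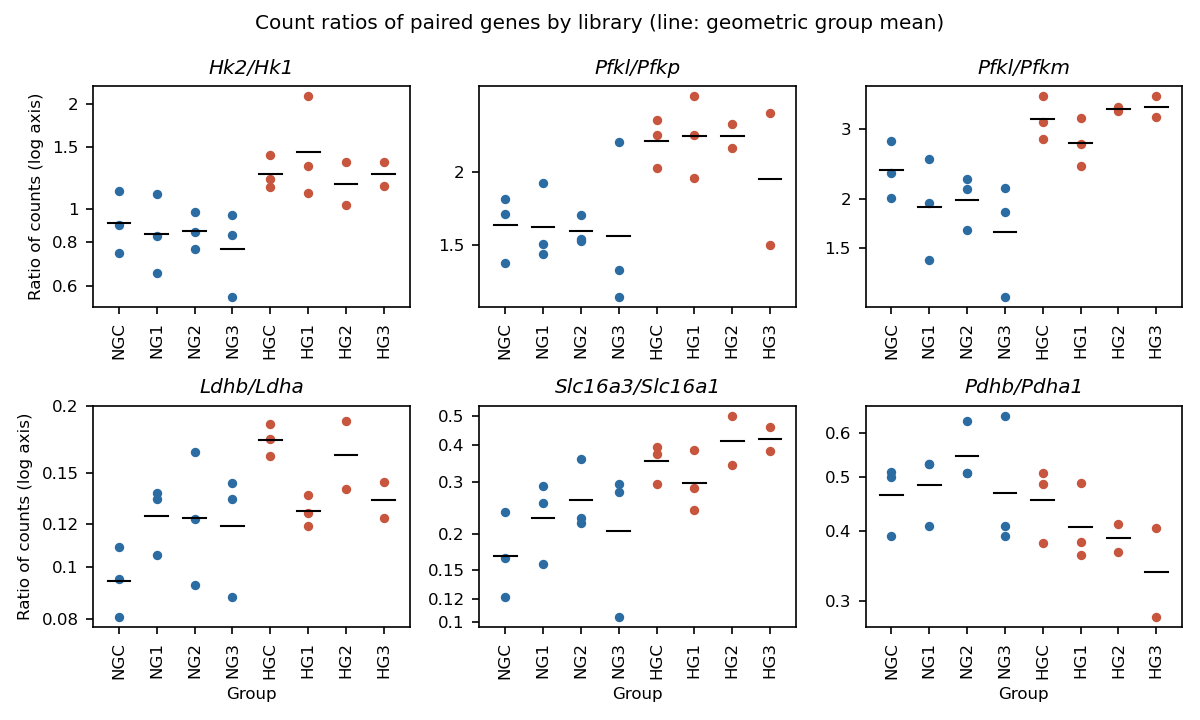
Ratio of the counts of paired genes in each of the 22 libraries (log axis) by group, for the 6 pairs with an adjusted p under 0.05, with the geometric group mean (line). Blue is normal and red is high glucose. Hk2/Hk1 is above 1 in all 10 high-glucose libraries and in 2 of 12 in normal glucose, and Pdhb/Pdha1 is the pair that falls.

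Between the untreated controls (HGC against NGC, n = 3 each), 1 of 31 members was called, where 2.28% of all genes were: Ldhb, at a log2 difference of 1.09 ± 0.20 (adjusted p = 0.000708), called in all 14 alternatives that apply. Pfkl (0.46), Eno2 (0.35), Ldha (0.20), Ldhb, Slc16a3 (0.79) and Pgm1 (0.41) were above every NGC library in every HGC library, 6 of 31 members, against 8.46% of all genes. Hk2 (0.27), Aldoa (0.17), Pdk1 (0.43) and Pdha1 (0.08) overlapped there. Among the treated libraries, which share none with the controls, the same 8 members were called as over all levels, where 8.10% of all genes were called, and these libraries also enter that mean. The call of Ldhb (log2 0.49) was lost there without HG2 replicate 2 (adjusted p = 0.112), that of Slc16a3 without HG2 replicate 1 (adjusted p = 0.0853) and that of Pdha1 without HG2 replicate 2 or HG3 replicate 3 (adjusted p up to 0.146).

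At dose label 1 (HG1 against NG1), Hk2, Aldoa, Ldha and Pdk1 were called, 4 of 31 against 1.66% of all genes, with log2 differences of 0.65, 0.53, 0.44 and 1.22. The count was 2 without NG1 replicate 3, 0 without HG1 replicate 2 and 1 without any other library of these groups. At dose label 2 (n = 2 against 3), 0 of 31 were called by edgeR and 1 by DESeq2, against 0.76% and 1.14% of all genes, and 5 had an unadjusted p under 0.05, against 10.5%. The lowest adjusted p there was 0.0522, of Pfkl (0.65). At dose label 3 (n = 2 against 3), Pfkl (0.69) and Aldoa (0.51) were called, 2 of 31 against 0.919%, and 0 were called with only these groups in the fit or without HG3 replicate 3, and 1 without NG3 replicate 2 or HG3 replicate 1. A positive difference at all 4 treatment levels was found in 14 members against 12.8% of all genes, and a negative one at all 4 in 0 members against 13.7%. The 14 were the 8 called over all levels with Aldoc, Eno2, Pkm, Pdk3, Pgm1 and Pgm2.

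Whether the medium acted differently in treated and untreated cells was tested as the difference of those differences. It called 0 of 31 members in edgeR and in DESeq2, where they called 0.00753% and 0.218% of all genes, and 2 members had an unadjusted p under 0.05, against 8.48%. These were Ldhb, whose difference was 0.60 smaller on the log2 scale in treated cells (-0.60 ± 0.24, adjusted p = 0.478), and Aldoa, whose difference was larger (0.28 ± 0.13, adjusted p = 0.557). A difference between treated and untreated cells in these responses was thus not shown for any member.

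Mogroside V was compared with the control of the same medium at each dose label, and 0 of 31 members were called in any of the 6 comparisons by edgeR or DESeq2. Of all genes, edgeR called 0% in NG1, HG1, HG2 and HG3, 0.00753% in NG2 and 0.128% in NG3, and DESeq2 0% in NG1, HG2 and HG3, 0.188% in NG2, 1.13% in NG3 and 0.0678% in HG1. An unadjusted p under 0.05 was found for 1, 1 and 2 members in NG1, NG2 and NG3, against 4.88%, 6.46% and 10.4% of all genes. In HG1, HG2 and HG3 it was found for 2, 0 and 1 members, against 7.78%, 5.35% and 4.51%. The largest difference was that of Pdk2 in NG3, at 0.760, 1.62 and 0.791 CPM against 5.37, 3.33 and 1.66 CPM in NGC (log2 -1.74 ± 0.59, adjusted p = 0.217), and NG3 replicate 2 lay just under NGC replicate 3. Pgk1, whose counts are uncertain, had 26.9, 43.8 and 22.5 CPM in HG1 against 19.3, 8.29 and 19.4 CPM in HGC (log2 1.01 ± 0.34, adjusted p = 0.431). The 3 comparisons of a medium share the same control libraries. The median standard error of a member was 0.17 to 0.20 in these comparisons, so for a member with such an error a change of 0.28 would be under 2 errors. Errors differed between members, so this is not the limit for each gene.

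**Figure D5:**
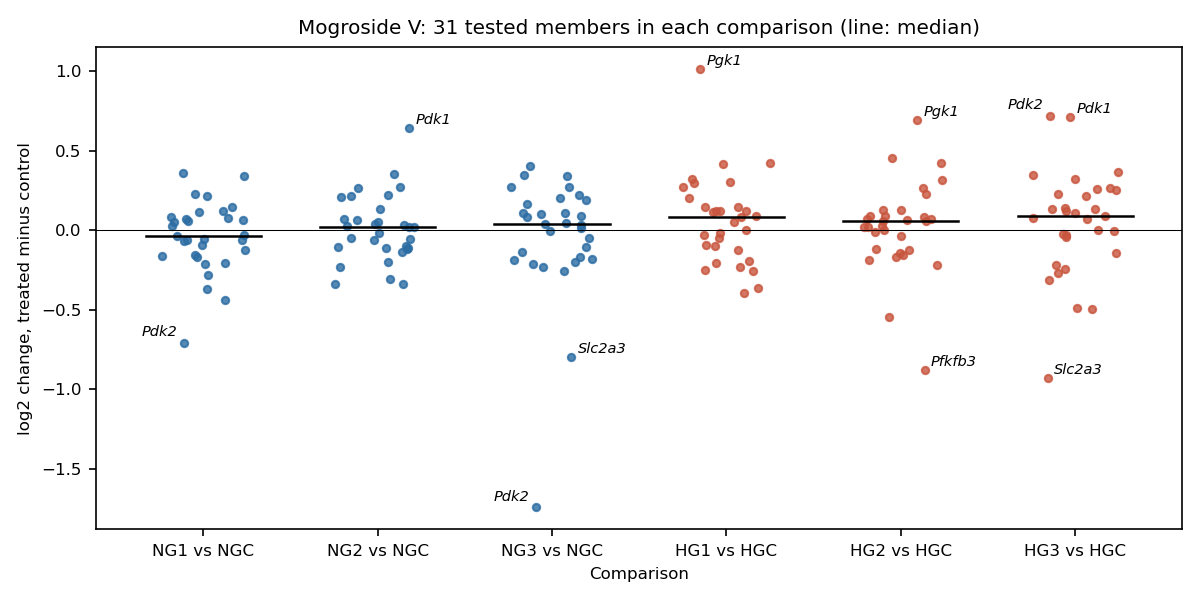
Log2 difference between treated and control cells of the same medium for the 31 tested genes (points) in each of 6 comparisons, with the median (line). Points beyond 0.6 in either direction are named. Medians lie between -0.04 and 0.09, and no point has an adjusted p under 0.05.

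Of 41 further genes of glucose transport, glycolysis, lactate and pyruvate metabolism, 20 passed the filter, 3 were higher and 0 lower over all levels (median 0.04), where 5.71% of all genes were higher and 4.38% lower. Pdp2, a phosphatase that reactivates pyruvate dehydrogenase and so opposes the kinases, rose from 23.9 ± 3.38 to 39.2 ± 5.21 CPM (log2 0.77 ± 0.09, adjusted p = 7.54e-08). Galm, which interconverts the anomers of sugars before hexokinase, rose from 10.9 ± 2.82 to 19.1 ± 3.85 CPM (0.82 ± 0.14, adjusted p = 5.63e-05), and Tigar, a fructose 2,6-bisphosphatase, rose by 0.42 ± 0.12 (adjusted p = 0.0164). The transporter genes Slc2a2, Slc2a4 and Slc2a5, the hexokinases Hk3 and Hkdc1, the liver pyruvate kinase Pklr and the neuronal lactate transporter Slc16a7 failed the filter, at no more than 1.32 CPM in any library. Bsg, the chaperone of the lactate transporters, did not pass (-0.02 ± 0.06, adjusted p = 0.868), nor did Dld (0.04 ± 0.09) and Pdhx (0.05 ± 0.11), other subunits of the pyruvate dehydrogenase complex.

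Beside glycolysis, 0 of 8 genes of the pentose phosphate pathway, 0 of 4 tested of gluconeogenesis and 0 of 15 of the citrate cycle were called over all levels in edgeR, where 10.1% of all genes were. Against that share, lists of this size with 0 to 3 calls show nothing particular to them. In the glycogen list, 2 of 10 were higher: Ugp2, which makes UDP-glucose (0.34 ± 0.07, adjusted p = 0.000571), and Gys1, glycogen synthase (0.34 ± 0.11, adjusted p = 0.0376). Sord, which oxidizes sorbitol to fructose in the polyol pathway, rose by 0.41 ± 0.08 (adjusted p = 0.000143), 1 of 4 in its list, and Got2, the mitochondrial aspartate aminotransferase, by 0.28 ± 0.07 (adjusted p = 0.00532), 1 of 9 in the list of NADH shuttles. Of 15 tested targets of the hypoxia-inducible factor HIF1 outside glycolysis, 2 were higher, P4ha2 (0.56 ± 0.09) and Slc6a8 (0.53 ± 0.08), and Mxi1 was lower (-0.36 ± 0.11), with a median of 0.03. Of 8 tested transcription factors of the pathway, Hif1a rose (0.29 ± 0.07, adjusted p = 0.00471) and Myc fell (-0.77 ± 0.21, adjusted p = 0.0164).

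Because several members rose together, the 250 bases before each listed start were searched for ACGTG, the core that HIF1 binds, for its variant GCGTG, and for CACGTG, the E-box that Myc and the MondoA and ChREBP proteins can bind, on both strands. The sequences are RefSeq's for GRCm38.p6, which is not the build of the count files, and 32 members had at least 1 start (49 starts). ACGTG was in 42.9% of the members' starts against 16.6% of all 32851 starts of the table, GCGTG in 51.0% against 28.2%, and CACGTG in 12.2% against 6.02%. Some windows of the same gene overlap, as for Aldoa, Eno1 and Pfkm, so that a site is counted at more than 1 start. Some windows also hold annotated exons. The members' windows were also richer in G and C, with a median of 61.6% against 52.4%. CACGTG contains ACGTG on each strand, so each such site counts as 2 matches to ACGTG. Among the 8 members that were higher in high glucose, 4 had ACGTG at a start (Aldoa, Hk2, Ldha and Slc16a3), and 13 of the 24 other members did. GCGTG was at a start of 5 of the 8 and 15 of the 24, and CACGTG of 1 of the 8 and 5 of the 24. None of the words was thus particular to the members that were higher. Matches are descriptions of these letters, and binding was not measured.

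The windows of Hk2, Ldha, Ldhb and Pdha1 are shown, since they stand for the trapping of glucose, the pair of lactate dehydrogenase subunits and the gate to mitochondria. Capitals mark the words, which read CACGT or CACGC where the match is on the other strand. The Hk2 window (chr6:82774455-82774704, minus strand) has 2 matches to ACGTG. The Ldha window (chr7:46845554-46845803, plus strand) has 5, of which 4 lie in its 2 CACGTG sites. The window of the other listed Ldha start (chr7:46846832-46847081), not shown, has 0 matches to ACGTG and 1 to GCGTG. The Ldhb window (chr6:142507958-142508207, minus strand) has 1 match to GCGTG and none to ACGTG, and the Pdha1 window (chrX:160138431-160138680, minus strand) has 3 to GCGTG and none to ACGTG.
Hk2: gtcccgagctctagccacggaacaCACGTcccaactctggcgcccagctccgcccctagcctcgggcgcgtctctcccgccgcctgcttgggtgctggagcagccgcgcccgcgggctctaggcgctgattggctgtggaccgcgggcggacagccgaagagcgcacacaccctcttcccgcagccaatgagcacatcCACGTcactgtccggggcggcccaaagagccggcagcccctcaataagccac
Ldha: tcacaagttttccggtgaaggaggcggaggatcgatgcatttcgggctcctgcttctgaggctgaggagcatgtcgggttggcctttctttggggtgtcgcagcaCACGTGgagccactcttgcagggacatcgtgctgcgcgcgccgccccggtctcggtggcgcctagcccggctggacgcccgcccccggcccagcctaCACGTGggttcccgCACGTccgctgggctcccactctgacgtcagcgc
Ldhb: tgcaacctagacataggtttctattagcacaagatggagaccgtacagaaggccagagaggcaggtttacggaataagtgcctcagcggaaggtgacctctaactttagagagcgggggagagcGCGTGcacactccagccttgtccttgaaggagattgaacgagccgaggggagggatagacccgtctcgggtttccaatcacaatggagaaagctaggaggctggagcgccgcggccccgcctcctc
Pdha1: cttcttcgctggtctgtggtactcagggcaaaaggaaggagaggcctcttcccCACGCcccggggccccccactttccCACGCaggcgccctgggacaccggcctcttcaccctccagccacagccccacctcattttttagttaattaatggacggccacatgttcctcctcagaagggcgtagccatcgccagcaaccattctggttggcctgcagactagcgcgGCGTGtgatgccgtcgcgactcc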

How the data were processed

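Polyadenylated RNA of 24 libraries was sequenced, and the authors deposited raw read counts (whole numbers by gene) in 1 file per library. FastQC 0.11.9, STAR 2.7.5c, HTSeq 1.99.2 and the build GRCm39 are named per the submitters' processing notes; whether strand was used in counting is not stated there. Reads with no gene (14.4 to 20.6%), with an ambiguous gene (3.46 to 4.15%) or with several alignments (16.5 to 18.9%) stayed out of totals and tests. The 22 libraries kept were fitted once with edgeR 4.0.16 (TMM, default low-count filter over 8 groups, robust quasi-likelihood tests, 13 comparisons, Benjamini-Hochberg adjustment over 13281 genes, threshold 0.05), and a gene is called, or said to rise or fall, at an adjusted p under 0.05. CPM are given as mean ± SD or by library, and log2 differences ± SE. DESeq2 1.42.0, RLE factors, no filter, only the groups compared, a block for the replicate number, leaving out each library or those that stood apart, and the identical file used in HG2 or HG3 were alternatives. Ratios used a pseudocount of 0.5 counts (2 as an alternative) and 40000 reassignments. Lengths are merged exons of GENCODE M21. No label says that replicates were separate cultures. The p-values set differences between groups against the spread among these libraries, and that spread may be technical, in which case they could be too small. A culture or library batch is not given in the labels. The pipeline was tested on simulated data. The members, lists and rule for named genes (members called, isoforms of each family, up to 3 called genes of each other list) were chosen with earlier results of these data known. Symbols were found for 51948 IDs. Of the lists of oligodendrocyte, microglia and erythroid markers, 0 of 1, 1 of 3 (Csf1r, higher) and 0 of 3 tested genes were called between the media, and of astrocyte and tanycyte markers 1 of 5 (Sox9, lower). Of all genes, 5.71% were called higher and 4.38% lower, so single calls in lists of this size show nothing particular to them.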

Additional observations from a re-analysis of the deposited data

How the results depend on the processing

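Over all treatment levels, 7 of the 8 calls (all but Pdha1) held in 29 of 29 alternatives, and no member changed sign with a call in any alternative run. A pairing of the samples by replicate number was not seen. The correlation of deviations was 0.0107 in the median for the same number (highest 0.165) and -0.00508 for different numbers (highest 0.131). Such correlations cannot tell whether cultures or batches were shared. With the number as a block, 8 members were called over all levels and 1 between the controls, as without it, and the ratios Hk2/Hk1 and Pfkl/Pfkm were 0.61 and 0.69. At dose label 2 the count of members was 1 instead of 0 with RLE factors, DESeq2, no filter, only the groups compared, the libraries that stood apart left out, or the identical file in HG2 or in HG3. At dose label 3 it was 0 instead of 2 with only the groups compared and 6 with the identical file in HG3. In HG1 against HGC it was 1 (Pgk1) without the filter. Counts over all genes moved too. For the interaction, 1 gene became 29 with DESeq2, 42 without the filter, and 6 and 3 with the identical file in HG2 and HG3. At dose label 1, 221 became 350 with DESeq2, 557 with only the groups compared and 431 without the libraries that stood apart. At dose label 2, 101 became 152, 278 and 189 in the same order, and 193 with the identical file in HG2. At dose label 3, 122 became 226, 4 and 203 in that order, 228 without the filter and 326 with the identical file in HG3. Ldhb/Ldha was 0.37 without the libraries that stood apart (adjusted p = 0.0521), 0.31 with the identical file in HG2 (0.0981) and 0.33 in HG3 (0.0665), and Pdhb/Pdha1 was -0.26 without the libraries that stood apart (0.0521). With each library left out, Ldhb/Ldha ranged from 0.31 to 0.42, Pdhb/Pdha1 from -0.38 to -0.24 and Pfkl/Pfkp from 0.37 to 0.56. Counts of all genes then ranged from 163 to 258 between the controls (303 with all libraries, and 163, 184 and 166 without NGC replicate 1, NGC replicate 2 and HGC replicate 2), from 65 to 179 at dose label 1, from 19 to 62 at dose label 2, from 31 to 174 at dose label 3, from 0 to 4 for the interaction and from 653 (without HG2 replicate 1) to 1279 among treated libraries, and counts of members from 0 to 2 at dose labels 1 and 3. The cause was not tested. HG2 and HG3 had 2 libraries each, and the median standard error between the controls was 0.23 over all genes and 0.18 over the members. Differences as small as those of Ldha and Pdha1 over all levels are under 2 such errors. Errors differed between genes, and Ldha was called at dose label 1, where its difference was larger.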
